A study of Mus musculus with 32 samples.

Results

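The axonemal dynein heavy chains studied here are the motors of motile cilia and sperm flagella, and their transcripts were measured by mRNA sequencing in the amygdala and hippocampus of mice that carried a mutation of a writer or of an eraser of histone H3 lysine 4 methylation, or of both. The 10 members were listed by symbol as *Dnah1*, *Dnah2*, *Dnah3*, *Dnah5*, *Dnah6*, *Dnah7a*, *Dnah7b*, *Dnah9*, *Dnah11* and *Dnah12*, out of 53715 gene rows in the count tables. The annotation holds 5 further axonemal dynein heavy chain genes, namely *Dnah7c*, *Dnah8*, *Dnah10*, *Dnah14* and *Dnah17*, which were kept for comparison. *Dnah1* was put on the list because its level was higher in the animals without *Kdm5c*. Values of the members in *Kdm5c*-KO or DM against WT, in DM against *Kmt2a*-HET, and in the regional differences and the interaction built from these contrasts, are therefore given as a description, with no p-value for a member. Counts of members past a threshold in them are printed beside the same count over all genes, and nothing is read from them.

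The animals were adult male F1 hybrids of the 129xB6 background, bred from 129S1/SvImJ males carrying 1 mutant *Kmt2a* allele and C57BL/6J females carrying 1 mutant *Kdm5c* allele. *Kmt2a* encodes an H3K4 methyltransferase and *Kdm5c*, which is X-linked, an H3K4 demethylase. The 4 genotypes were WT, *Kmt2a*-HET (*Kmt2a*+/-), *Kdm5c*-KO (*Kdm5c*-/y) and DM, which carried both mutations (*Kmt2a*+/-, *Kdm5c*-/y). Both mutations were constitutive and present in all cells, so that no genotype separates neurons from other cells. There were 4 mice per genotype, and the amygdala and the hippocampus were microdissected from the same animals, giving 16 libraries per region and 32 in all.

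In a motile cilium, dynein arms sit on the outer doublet microtubules and drive them to slide past each other. Outer arms, which hold the chains encoded by *Dnah5*, *Dnah9* and *Dnah11*, set beat frequency, whereas inner arms, which hold the chains of *Dnah1*, *Dnah2*, *Dnah3*, *Dnah6*, *Dnah7a*, *Dnah7b* and *Dnah12*, shape the waveform. In the brain, motile cilia are found on ependymal cells that line the ventricles, and dynein genes are also expressed in the choroid plexus, an epithelium in the ventricles that secretes cerebrospinal fluid. The factors FOXJ1 and RFX2/RFX3 switch on motile cilia genes, and RFX proteins bind X-box sequences in their promoters. Pathogenic variants of human DNAH5 and DNAH11 cause primary ciliary dyskinesia, and those of DNAH1 cause malformed sperm flagella. In bulk tissue, fewer cells of a type and less RNA per cell cannot be told apart.

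The promoter of *Dnah1* is shown because its gene was called against WT in both mutants without *Kdm5c* and in both regions. It is that of the coding transcript Dnah1-201, which begins at chr14:31323896. The short transcript Dnah1-202, to which 62.4% of the *Dnah1* counts were assigned, begins inside the gene at chr14:31269511, and its upstream sequence is not shown. The window is the 250 bases upstream of the RefSeq start site on GRCm38.p6, at chr14:31323897-31324146, and is written 5′ to 3′ on the minus strand, which is the coding strand of the gene. Capitals mark TCCCGC, a core that E2F factors bind.
Dnah1: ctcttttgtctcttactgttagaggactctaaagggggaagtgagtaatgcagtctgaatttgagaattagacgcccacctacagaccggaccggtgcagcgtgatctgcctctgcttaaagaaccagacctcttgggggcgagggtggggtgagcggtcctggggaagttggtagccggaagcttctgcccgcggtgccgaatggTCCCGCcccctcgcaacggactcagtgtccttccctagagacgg
The letters TCCCGC, searched on both strands, were found in 1 of the 9 members with a RefSeq promoter entry (*Dnah3* had none), at 44 bases upstream of the start in *Dnah1*, and in 16.9% of all 32841 promoters of the same length. CACGTG, the E-box core, was in 0 of the 9 and in 6.02% of all promoters. An X-box (GTTNC and GNAAC with 3 or 4 bases between them, both strands) was in 4 of the 9 and in 1.67% of all promoters. These motifs were chosen after the sequences had been seen, and a match is a stretch of letters and not a measured binding site. The X-boxes of *Dnah7a*, *Dnah7b* and *Dnah9* are shown as examples, on the strand of each gene, with the bases on either side and the match in capitals.
Dnah7a X-box: gccagtttGTTGCTTAGCAACgaatcgac
Dnah7b X-box: gccagtttGTTGCTTAGCAACgaatcgac
Dnah9 X-box: ttccaccaGTTTCCCAGCAACaacgacgc
They began 57, 24 and 82 bases upstream of the start. The printed windows, match and flanks together, lie at chr1:53706821-53706849 (minus strand), chr1:46066821-46066849 (plus) and chr11:66168613-66168641 (minus). The *Dnah7a* and *Dnah7b* windows shown are the same in all 29 bases, and the promoters of both genes have a run of 33 bases in common.

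Each library held between 19215503 and 26033615 gene counts in the amygdala and between 19322262 and 27798980 in the hippocampus. Of 10 hippocampus markers 9 were higher in WT hippocampus, and of 7 amygdala markers 5 were higher in WT amygdala. The count of *Kdm5c*, which includes exons outside the deleted part and so is only a partial check of the labels, differed from WT by a log2 fold change of -0.34 ± 0.09 (SE; adjusted p = 0.0299, DESeq2) in *Kdm5c*-KO hippocampus and by -0.32 ± 0.12 (adjusted p = 0.467, DESeq2) in *Kdm5c*-KO amygdala. In DM it differed by -0.21 ± 0.09 (adjusted p = 0.487, DESeq2) in the hippocampus and by -0.34 ± 0.12 (adjusted p = 0.325, DESeq2) in the amygdala, so that 1 of these 4 comparisons was called. *Kmt2a* in *Kmt2a*-HET differed by 0.01 ± 0.24 in the amygdala and by 0.21 ± 0.24 in the hippocampus (adjusted p = 1 for both, DESeq2), and thus did not separate the genotype at the level of the whole gene. The summed count of 17 choroid plexus markers varied widely between libraries. In the amygdala it lay between 1250 and 2126 in 14 libraries, but reached 47320 and 9362 in DM replicates 1 and 3. In the hippocampus it ranged from 1061 in a *Kmt2a*-HET library to 112800 in *Kdm5c*-KO replicate 1, with 26670 in WT replicate 3, 27740 in *Kdm5c*-KO replicate 4, and 31090 and 32470 in DM replicates 2 and 4. Leaving out the libraries over 5 times the regional median removes DM replicates 1 and 3 in the amygdala, and WT replicate 3, *Kdm5c*-KO replicates 1 and 4 and DM replicates 2 and 4 in the hippocampus. *Kdm5c*-KO against WT amygdala loses no library by it.

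*Dnah1*, an inner arm heavy chain (chr14:31260375-31323896 on mm10, minus strand), was higher in both genotypes that lacked *Kdm5c*, and in both brain regions. Expression is given as the normalised count, the deposited expected count divided by the size factor of its library within a region. In the amygdala, the WT mice had 319, 597, 413 and 459 counts for replicates 1 to 4. *Kmt2a*-HET mice had 514, 505, 711 and 513. *Kdm5c*-KO mice had 961, 1070, 1520 and 1063, and DM mice had 1036, 1249, 965 and 1023. All 8 libraries without *Kdm5c* lay above all 8 libraries with it. WT mice had a mean of 447 ± 116, *Kdm5c*-KO mice of 1153 ± 250 and DM mice of 1068 ± 124 (SD, n = 4 each). This corresponds to a log2 fold change against WT of 1.37 ± 0.19 (SE) in *Kdm5c*-KO and 1.26 ± 0.19 in DM, or 2.58-fold and 2.39-fold.

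In the hippocampus the separation was wider, from a lower base. The WT mice had 151, 177, 169.8 and 200.3 counts and the *Kmt2a*-HET mice 169.9, 158, 227 and 167. The *Kdm5c*-KO mice had 872, 929.6, 771 and 715 and the DM mice 828, 781, 815 and 886. The lowest library without *Kdm5c* held 715 counts and the highest library with it 227. The log2 fold change against WT was 2.23 ± 0.13 in *Kdm5c*-KO and 2.24 ± 0.13 in DM, or 4.69-fold and 4.72-fold. DM against *Kmt2a*-HET, which contrasts animals with and without *Kdm5c* on the *Kmt2a*+/- background, gave 2.19 ± 0.13 in the hippocampus and 0.93 ± 0.19 in the amygdala. The comparisons against WT share their control libraries, so they are not independent of each other.

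**Figure D1:**
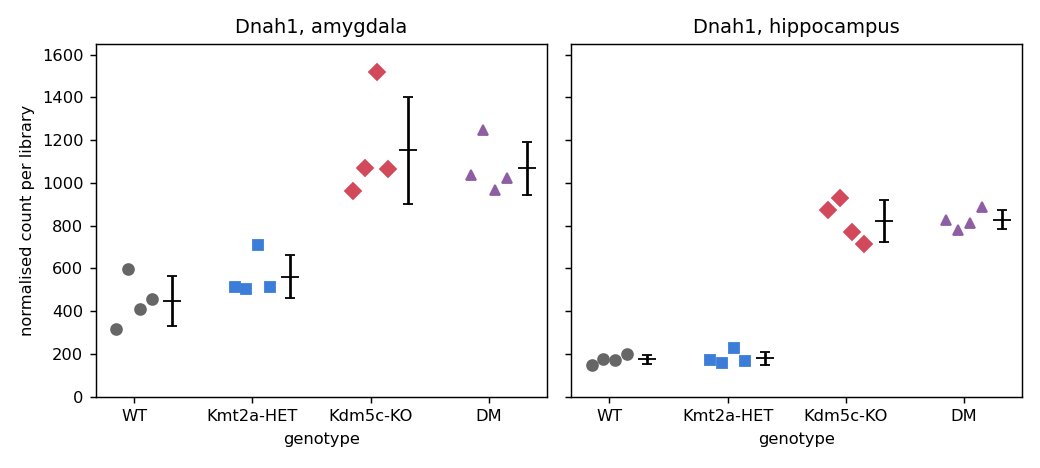
Normalised count of *Dnah1* in each library (points, 4 mice per genotype) in the amygdala (left) and hippocampus (right), with the mean and SD of each genotype in black. In the hippocampus the *Kdm5c*-KO and DM libraries sit between 715 and 929.6 counts and the WT and *Kmt2a*-HET libraries between 151 and 227.

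*Dnah1* was about as high in mutant libraries with few choroid plexus markers as in those with many. The amygdala DM libraries with high markers held 1036 and 965 counts, and the DM libraries without them 1249 and 1023. In the hippocampus, the *Kdm5c*-KO library with the highest marker sum held 872 counts and that with the lowest 929.6. Without the libraries whose choroid marker sum was over 5 times the median of the region, the log2 differences from WT were 2.27 (*Kdm5c*-KO) and 2.22 (DM) for the hippocampus, and 1.35 (DM) for the amygdala. Scaling by the ERCC spike-ins in place of the genes gave 1.24 ± 0.44 and 0.90 ± 0.44 in the amygdala and no call there. In the hippocampus the call of *Kdm5c*-KO was kept under that scaling (2.27 ± 0.54) and that of DM (1.59 ± 0.54) was not. DM against *Kmt2a*-HET was then 1.78 ± 0.54 in the hippocampus and 0.59 ± 0.44 in the amygdala, and neither was called. Leaving out each library in turn ended no call of *Dnah1* against WT.

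The annotation gives *Dnah1* 2 transcripts, and the deposited transcript counts add up to the gene count. Dnah1-201 is the protein-coding transcript, with 78 exons and 12872 bases. Dnah1-202 is a processed transcript without an annotated protein, with 17 exons and 2897 bases at chr14:31261992-31269511, near the 3′ end of the gene. Of its bases 2726 (94.1%) lie within exons 59 to 75 of Dnah1-201 and only 171 are its own, and the libraries were primed with oligo-dT, so reads can be split between the transcripts only in part. In WT hippocampus Dnah1-201 held 72.2, 65.1, 72.4 and 70.5 normalised counts in replicates 1 to 4, and in *Kdm5c*-KO hippocampus 368, 330.1, 276 and 293. Dnah1-202 held 78.5, 112, 97.4 and 129.8 in WT and 504, 599.5, 494 and 422 in *Kdm5c*-KO. Both transcripts separated the genotypes without overlap in the hippocampus.

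Dnah1-202 held more counts than Dnah1-201 in 31 of 32 libraries. In the amygdala it took 61.8% ± 5.17 of the *Dnah1* counts of WT mice, 60.2% ± 6.28 of *Kdm5c*-KO mice and 63.2% ± 1.74 of DM mice (SD, n = 4). The hippocampus shares were 59.4% ± 5.82, 61.4% ± 3.45 and 65.4% ± 0.887 in the same order. Relative to the WT mean, Dnah1-201 was 2.67-fold in *Kdm5c*-KO and 2.33-fold in DM amygdala, and 4.52-fold and 4.09-fold in the hippocampus. Dnah1-202 was 2.53-fold and 2.43-fold in the amygdala and 4.83-fold and 5.18-fold in the hippocampus. Both transcripts were thus higher where the gene was higher. The range of the share in WT hippocampus (52.1% to 64.8%) met that of DM hippocampus (64.5% to 66.5%), and the use of the 2 transcripts was not tested.

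**Figure D2:**
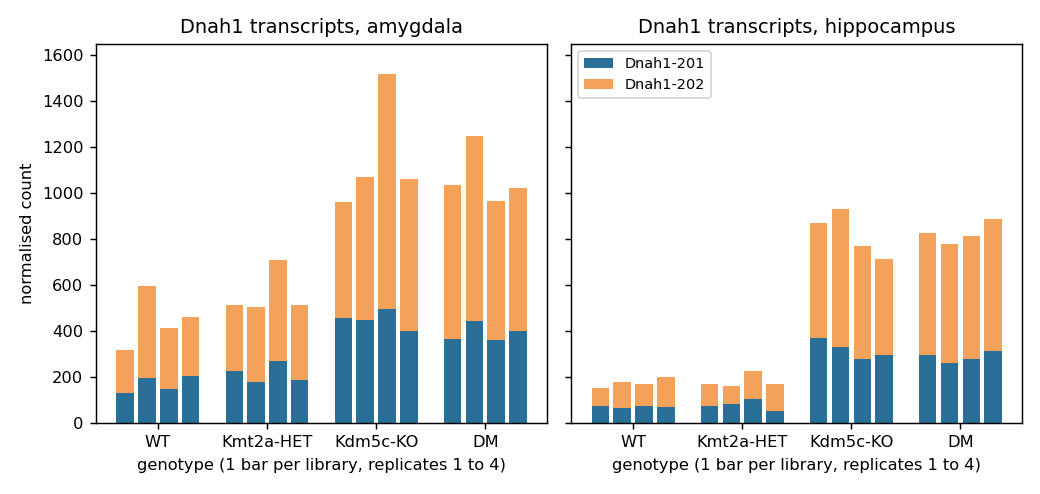
Normalised counts of the *Dnah1* transcripts in each library, stacked (blue, the coding transcript Dnah1-201; orange, the short transcript Dnah1-202), with 4 bars per genotype for replicates 1 to 4. Both parts of the bar are taller in *Kdm5c*-KO and DM, with Dnah1-202 taking between 47.7% and 68.5% of the counts of a library.

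Levels of different members were compared per length, as counts per kilobase of exon per 1000000 gene counts. For *Dnah1* this divides the counts of both transcripts by 13.04 kb of exon. Per kilobase of its own length Dnah1-201 held 13.1 ± 2.79 normalised counts in WT amygdala and Dnah1-202 96 ± 30.8 (SD, n = 4). The levels of *Dnah1* below are thus those of the gene and not of its coding transcript. In WT amygdala *Dnah1* stood first at 1.49 ± 0.429 (SD, n = 4), above *Dnah6* at 0.526 ± 0.318, and the lowest *Dnah1* library (1.02) lay above the highest *Dnah6* library (0.943). The order of the next members, *Dnah6*, *Dnah5*, *Dnah9* and *Dnah2*, is not resolved, because their ranges overlap. The lowest were *Dnah3* at 0.0885 ± 0.038 and *Dnah11* at 0.0824 ± 0.0271, but their ranges overlapped those of *Dnah12* (0.0447 to 0.141) and *Dnah7a* (0.0744 to 0.136), so the order at the bottom is not resolved either. In WT hippocampus *Dnah9*, an outer arm chain, stood first at 1.24 ± 0.487, and *Dnah1* had the next mean at 0.582 ± 0.0706, a place not resolved from *Dnah6* (0.294 to 0.775) or *Dnah5* (0.33 to 0.593). The ranges of *Dnah9* (0.555 to 1.59) and *Dnah1* (0.501 to 0.672) overlapped through WT replicate 4, in which *Dnah9* was low. In *Kdm5c*-KO hippocampus *Dnah1* stood first again at 2.77 ± 0.31, above *Dnah9* at 1.34 ± 0.137, with no overlap between their ranges. In DM hippocampus it was 2.72 ± 0.158 against 1.55 ± 0.328 for *Dnah9*. *Dnah1*, with both transcripts counted, held the top level in 6 of 8 groups, the exceptions being WT and *Kmt2a*-HET hippocampus. Dnah1-201 alone held 24.6 ± 3.15 normalised counts per kilobase in *Kdm5c*-KO hippocampus and 22.2 ± 1.65 in DM hippocampus, and its place among the members was not determined.

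**Figure D3:**
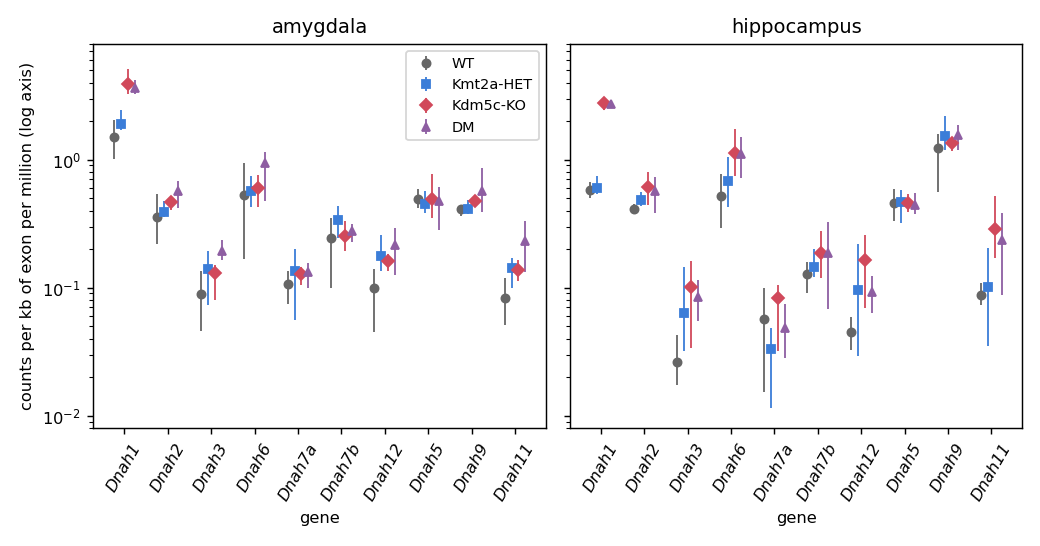
Level of each member per length (counts per kilobase of exon per 1000000 gene counts, log axis), as the mean (symbol) and the lowest to highest of 4 libraries (line) in each genotype, for the amygdala (left) and hippocampus (right). *Dnah1* lies between 3.23 and 5.12 in *Kdm5c*-KO amygdala, and *Dnah9* leads in WT hippocampus.

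Between the regions of WT mice, 3 of the 10 members differed, against 16.6% of all genes tested (20601). On a scale shared by both regions, *Dnah1* had 433 ± 114 counts in the amygdala and 180.3 ± 20.5 in the hippocampus, a log2 difference of -1.26 ± 0.21 (SE; adjusted p = 8.04e-08, DESeq2). *Dnah3*, an inner arm chain, had 28.4 ± 12.2 and 8.95 ± 3.91 (-1.61 ± 0.50, adjusted p = 0.0131, DESeq2). *Dnah9* ran the other way, with 149 ± 11.8 in the amygdala and 469 ± 186 in the hippocampus (1.66 ± 0.29, adjusted p = 5.51e-07, DESeq2). Both regions come from the same mice, and a fit with the mouse as a block called these 3 and *Dnah7b* in addition. The call of *Dnah3* was lost when WT replicate 3 or WT replicate 4 was left out, and that of *Dnah7b* was gained without WT replicate 1, giving 2 to 4 called members. With ERCC scaling only *Dnah9* was called (2.07 ± 0.64), and the differences of *Dnah1* and *Dnah3* were -0.51 ± 0.78 and -0.98 ± 0.80. The ependymal markers were higher in WT amygdala for 12 of 12, with 2 of them called, and the choroid plexus markers were higher in WT hippocampus for 15 of 17, with 12 called, and their part in these differences was not tested.

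Among the other inner arm chains, *Dnah3*, *Dnah6* and *Dnah12* were called higher in *Kdm5c*-KO hippocampus, which with *Dnah1* makes 4 of 10 members against a background of 1.01% of all 19302 genes tested. All calls are at an adjusted p under 0.1. *Dnah6* and *Dnah12* lay just inside that threshold and *Dnah11* just outside it. In DM hippocampus 2 members were called, *Dnah1* and *Dnah6* (background 0.881%), in *Kdm5c*-KO amygdala 1, *Dnah1* (background 0.756%), and in DM amygdala 3, *Dnah1*, *Dnah11* and *Dnah12* (background 0.99%). DM against *Kmt2a*-HET called 1 member, *Dnah1*, in the amygdala (background 0.805%) and 1 in the hippocampus (0.606%). Since the list was drawn up with these contrasts known, the counts describe the list and support nothing further. The median log2 fold change of the 10 members was 0.28 in *Kdm5c*-KO amygdala, 0.75 in DM amygdala, 0.83 in *Kdm5c*-KO hippocampus and 0.80 in DM hippocampus, where the medians of all tested genes lay between -0.014 and 0.002. The median of the members was 0.50 in DM amygdala, 0.75 in *Kdm5c*-KO hippocampus and 0.42 in DM hippocampus when the libraries of high choroid plexus markers were left out. Libraries of mutant and WT did not overlap, with the mutant higher, for 1 member in *Kdm5c*-KO amygdala (1.81% of the genes tested), 3 in DM amygdala (2.18%), 3 in *Kdm5c*-KO hippocampus (2.37%) and 3 in DM hippocampus (2.65%), *Dnah1* being among them each time.

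**Figure D4:**
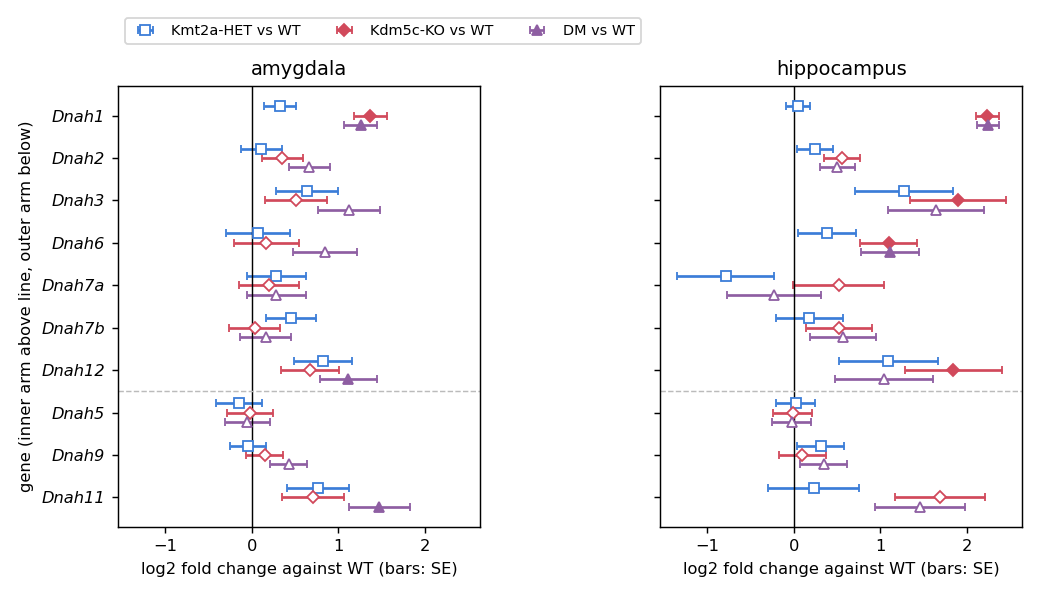
Log2 fold change against WT with its SE for each member in *Kmt2a*-HET, *Kdm5c*-KO and DM, in the amygdala (left) and hippocampus (right). Filled symbols are calls at an adjusted p under 0.1. *Dnah1* lies at 2.23 and 2.24 in *Kdm5c*-KO and DM hippocampus with the shortest error bars, whereas *Dnah5* lies between -0.15 and 0.02 in all comparisons.

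*Dnah6*, a single-headed inner arm chain, had 89.99, 238, 162 and 144 counts in WT hippocampus. *Kdm5c*-KO mice had 502, 232, 339 and 281, and DM mice 245, 470, 216 and 442. The groups overlapped, since WT replicate 2 exceeded the lowest library of each mutant. The log2 fold change was 1.09 ± 0.33 in *Kdm5c*-KO and 1.11 ± 0.33 in DM hippocampus. In the amygdala, *Dnah6* ranged from 53.4 to 289 in WT, from 128 to 230.4 in *Kdm5c*-KO and from 140 to 347 in DM, and the differences from WT were 0.17 ± 0.37 and 0.84 ± 0.37. In both mutants the hippocampus libraries with the highest *Dnah6*, which were *Kdm5c*-KO replicate 1 and DM replicates 2 and 4, were libraries with high choroid plexus markers. *Kdm5c*-KO replicate 4, also high in these markers, had 281 counts, below the 339 of replicate 3, which was not. WT replicate 3, likewise high in them, had 162, below the 238 of WT replicate 2. Without the libraries of high choroid plexus markers the difference was 0.86 ± 0.39 in *Kdm5c*-KO and 0.55 ± 0.39 in DM, and neither was called.

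*Dnah3* and *Dnah12* are low-level inner arm chains. *Dnah3* had 7.69, 14.1, 7.07 and 5.71 counts in WT hippocampus and 34.3, 33.5, 52.98 and 10.9 in *Kdm5c*-KO, a log2 fold change of 1.89 ± 0.55, with *Kdm5c*-KO replicate 4 within the WT range. In DM hippocampus it had 26.7, 30.03, 17.9 and 37.9, all above WT, and a fold change of 1.64 ± 0.56. In the amygdala all 4 DM libraries (54.1 to 75.3) lay above all 4 WT libraries (15.6 to 44.3), with a log2 fold change of 1.12 ± 0.35. *Dnah12* had 8.999, 16.3, 11.9 and 12.7 counts in WT hippocampus, and *Kdm5c*-KO mice had 53.2, 36.9, 70.2 and 18.9. DM mice had 18.6, 35.2, 17.5 and 32.3. All mutant libraries lay above WT, though in DM replicate 3 by little, and the log2 fold changes were 1.84 ± 0.56 and 1.05 ± 0.56. In DM hippocampus without the libraries of high choroid plexus markers the values were 1.25 ± 0.72 for *Dnah3* and 0.51 ± 0.76 for *Dnah12*. In the amygdala *Dnah12* had 12.9, 29.1, 28.03 and 39.2 in WT and 61.01, 80.2, 61.7 and 33.4 in DM, with a log2 fold change of 1.12 ± 0.33 and an overlap through DM replicate 4.

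*Dnah2*, a chain of the inner arm f complex, and the paralogues *Dnah7a* and *Dnah7b* were not called against WT in any genotype and region. *Dnah2* ranged from 131 to 155 in WT hippocampus, from 149.6 to 263 in *Kdm5c*-KO and from 135 to 252 in DM, and its log2 fold changes were 0.56 ± 0.20 and 0.50 ± 0.20. In the amygdala it differed by 0.35 ± 0.24 in *Kdm5c*-KO and by 0.67 ± 0.23 in DM. *Dnah7b* differed by 0.03 ± 0.29 and 0.16 ± 0.29 in the amygdala and by 0.52 ± 0.38 and 0.56 ± 0.38 in the hippocampus. *Dnah7a* differed by 0.20 ± 0.34 and 0.28 ± 0.34 in the amygdala and by 0.52 ± 0.53 and -0.22 ± 0.54 in the hippocampus. Without the libraries of high choroid plexus markers the DM hippocampus value turned to -0.30 ± 0.37 for *Dnah7b* and to 0.52 ± 0.77 for *Dnah7a*, that of *Dnah2* was 0.19 ± 0.22, and the DM amygdala value of *Dnah7a* was -0.002 ± 0.43. *Dnah7a*, *Dnah7b* and *Dnah7c* are near-identical copies among which reads may be split, and 61.9% of the *Dnah7a* counts were assigned to a short processed transcript of 732 bases, so the values of each are uncertain.

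Of the 3 outer arm chains 1, *Dnah11*, was called in DM amygdala, and 0 in the other 3 comparisons of *Kdm5c*-KO or DM with WT. In the hippocampus, *Dnah5* had 119, 215, 142 and 182 counts in WT and 134, 199, 171 and 149 in *Kdm5c*-KO. DM mice had 139, 203, 141 and 167, so all 3 genotypes overlapped. Its log2 fold changes in the 4 comparisons of *Kdm5c*-KO and DM with WT lay between -0.05 and -0.01, each with an SE of 0.23 to 0.26. They were, without the libraries of high choroid plexus markers, -0.47 ± 0.30 in DM amygdala, -0.30 ± 0.30 in DM hippocampus and 0.11 ± 0.30 in *Kdm5c*-KO hippocampus. *Dnah9* had 445, 584, 583 and 202 in WT hippocampus and 455, 551, 514 and 418 in *Kdm5c*-KO, with a log2 fold change of 0.10 ± 0.27. Its DM values were 0.35 ± 0.27 in the hippocampus and 0.43 ± 0.21 in the amygdala. The amygdala DM libraries with the highest *Dnah9* were replicates 1 and 3 (314 and 219.7 counts, against 143 and 149), the same 2 libraries that had high choroid plexus markers. Without them the amygdala DM value of *Dnah9* turned to -0.075 ± 0.169. The hippocampus values without high-marker libraries were 0.38 ± 0.35 in *Kdm5c*-KO and 0.20 ± 0.35 in DM.

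For *Dnah11*, the remaining outer arm chain, the high DM libraries of both regions were those with high choroid plexus markers. Its amygdala counts were 17.8, 25.4, 39.7 and 27.5 in WT and 54.5, 35.9, 44.1 and 45.8 in *Kdm5c*-KO. DM mice had 109, 45.4, 109.7 and 42.8. DM replicates 1 and 3 stood apart from DM replicates 2 and 4, which lay just above the highest WT library. Its hippocampus counts were 26.9, 28.9, 35.8 and 24.3 in WT and 166, 60.5, 91.5 and 55.4 in *Kdm5c*-KO. DM mice had 38.2, 129.6, 28.8 and 121, and these libraries split in the same way, with replicates 2 and 4 high. The log2 fold change was 1.47 ± 0.35 in DM amygdala, 1.69 ± 0.52 in *Kdm5c*-KO hippocampus and 1.45 ± 0.52 in DM hippocampus. Without the 2 libraries of high choroid plexus markers, that of DM amygdala was 0.69 ± 0.35 and was not called. WT replicate 3, with a choroid plexus sum of 26670 in the hippocampus, had 35.8 counts of *Dnah11*, the highest of the WT libraries there. *Kdm5c*-KO replicate 2, with a sum of only 1565, had 60.5. *Kdm5c*-KO replicate 4, a library of high markers, had 55.4, the lowest of its group, and replicate 3, which was not one, had 91.5. Without the libraries of high markers the log2 fold change of *Dnah11* in the hippocampus was 1.51 ± 0.56 in *Kdm5c*-KO and 0.33 ± 0.57 in DM.

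**Figure D5:**
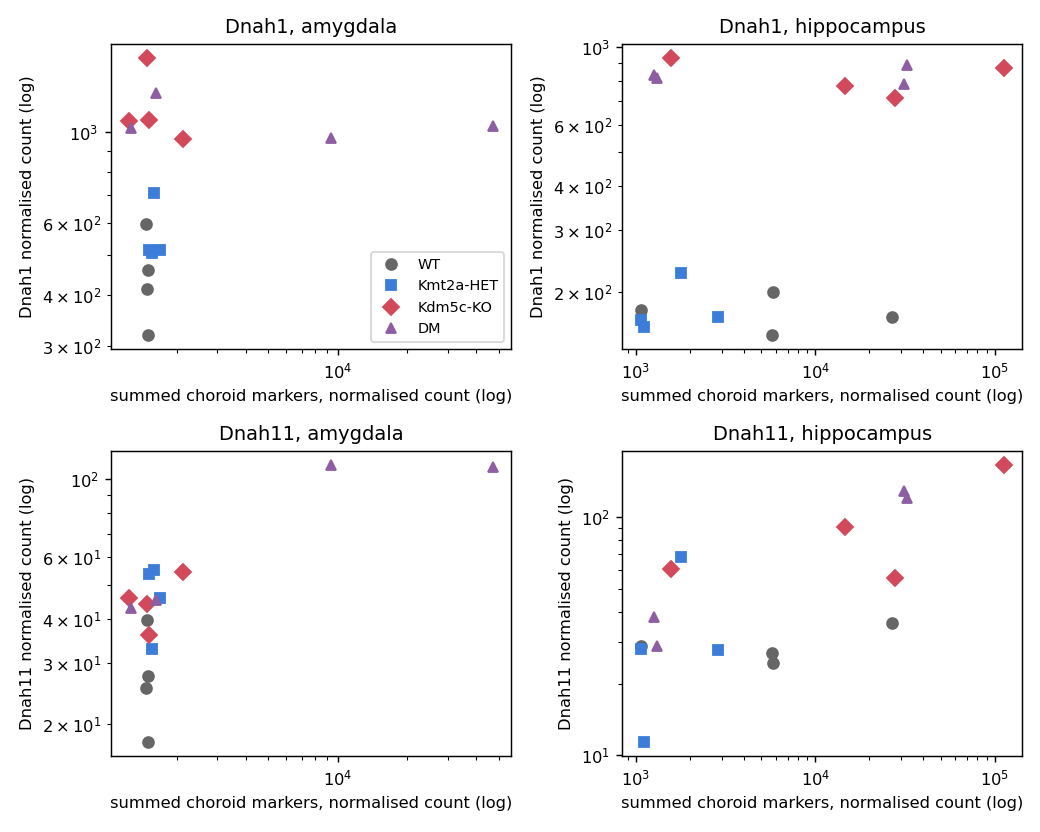
Normalised counts of *Dnah1* (top) and *Dnah11* (bottom) against the summed normalised count of 17 choroid plexus markers in each library (log axes), for the amygdala (left) and hippocampus (right). Libraries without *Kdm5c* lie above the others for *Dnah1*. At high marker sums the only library with *Kdm5c* is WT replicate 3 of the hippocampus (26670), and the amygdala has none to compare. The 4 DM libraries with the most *Dnah11* (109 to 129.6 counts) have marker sums between 9362 and 47320.

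With all libraries of high choroid plexus markers left out, which was chosen after the data had been seen, *Dnah1* was the 1 member still called in *Kdm5c*-KO hippocampus and in DM against WT of both regions. The log2 fold changes of *Dnah3* and *Dnah12* in *Kdm5c*-KO hippocampus were not smaller without these libraries, at 2.21 ± 0.71 and 2.08 ± 0.74, while their SEs were larger with fewer libraries. In DM hippocampus both were smaller, as given above. That of *Dnah12* was 1.06 ± 0.43 in DM amygdala. Leaving out the libraries whose sum of 12 ependymal markers exceeded 2 times the regional median (*Kdm5c*-KO replicate 1 and DM replicate 1 in the amygdala, *Kdm5c*-KO replicate 1 in the hippocampus) gave *Dnah1* alone in both mutants of the amygdala and in *Kdm5c*-KO hippocampus, and left DM against WT hippocampus without any library removed. The differences that lost their call were 1.87 ± 0.61 for *Dnah3*, 1.75 ± 0.61 for *Dnah12* and 0.84 ± 0.34 for *Dnah6* in *Kdm5c*-KO hippocampus, and 1.26 ± 0.37 for *Dnah11* and 1.10 ± 0.38 for *Dnah12* in DM amygdala. The ependymal sum was 541 to 653 in WT, 635 to 1112 in *Kmt2a*-HET, 673 to 1629 in *Kdm5c*-KO and 757 to 1625 in DM amygdala, and 238 to 490 in WT, 260.2 to 753 in *Kmt2a*-HET, 584 to 1760 in *Kdm5c*-KO and 461 to 642 in DM hippocampus. No ependymal marker was called in these comparisons, though 12 of 12 had a positive difference in *Kdm5c*-KO hippocampus (median log2 1.38) and in DM amygdala (median 0.80), and 11 of 12 in *Kdm5c*-KO amygdala (median 0.64) and in *Kmt2a*-HET amygdala (median 0.53). In DM hippocampus 10 of 12 were positive (median 0.58), as were 10 of 12 in *Kmt2a*-HET hippocampus (median 0.30). Of the choroid plexus markers 9 of 17 were called higher in DM amygdala (median log2 3.22), and 0 of 17 in the hippocampus, where all 17 were positive in *Kdm5c*-KO (median 2.24) and in DM (1.64). Their part in the differences of *Dnah3*, *Dnah6*, *Dnah11* and *Dnah12* was not tested beyond these values.

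The calls of members other than *Dnah1* were lost when single libraries were left out, though their differences stayed positive. In *Kdm5c*-KO hippocampus the log2 fold change then ranged from 1.57 to 2.23 for *Dnah3*, from 1.54 to 2.09 for *Dnah12* and from 0.84 to 1.36 for *Dnah6*. In DM amygdala it ranged from 1.25 to 1.70 for *Dnah11* and from 0.88 to 1.35 for *Dnah12*, and in DM hippocampus from 0.92 to 1.37 for *Dnah6*. In DM amygdala, *Dnah11* was lost without DM replicate 1 and *Dnah12* without any of WT replicates 1 to 3 and DM replicates 1 to 3, and without WT replicate 4 the count of called members rose to 6, with *Dnah2*, *Dnah3* and *Dnah6* added, while without DM replicate 4 it was 4, with *Dnah2* added. Those fits called 277 and 224 of all genes, against 211 with all libraries. In *Kdm5c*-KO hippocampus, *Dnah3*, *Dnah6* and *Dnah12* were all lost without WT replicates 1, 3 or 4 or *Kdm5c*-KO replicates 1 or 3, which left 1 member. *Dnah12* was lost without WT replicate 2, leaving 3 members. Without *Kdm5c*-KO replicate 2 the called members were *Dnah1*, *Dnah6* and *Dnah11*, and without *Kdm5c*-KO replicate 4 there were 5, *Dnah2* and *Dnah11* having been added and *Dnah6* lost. In DM hippocampus, *Dnah6* was lost without WT replicates 1, 3 or 4 or DM replicates 2 or 4, which left 1, and the count was 3 without WT replicate 2 (*Dnah3* added) or DM replicate 1 (*Dnah2* added). At an adjusted p under 0.05, and likewise with the quasi-likelihood test of edgeR, *Dnah1* and *Dnah11* were called in DM amygdala and *Dnah1* alone in the hippocampus of either mutant.

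Loss of 1 *Kmt2a* allele alone gave no call for any member. In *Kmt2a*-HET against WT, 0 of 10 members passed in the amygdala (background 0.00988%) and 0 of 10 in the hippocampus (background 0%) with DESeq2, and edgeR also called 0, while 2 members in the amygdala and 1 in the hippocampus had an unadjusted p under 0.05, as had 926 of 30355 and 715 of 29841 genes. *Dnah1* differed by 0.33 ± 0.19 in the amygdala (adjusted p = 1, DESeq2) and by 0.05 ± 0.14 in the hippocampus (adjusted p = 1, DESeq2). *Dnah12* and *Dnah11* had the largest differences in the amygdala, 0.82 ± 0.33 and 0.77 ± 0.35 (adjusted p = 1 for both, DESeq2), and *Dnah3* in the hippocampus, 1.27 ± 0.56 (adjusted p = 1, DESeq2), where a single library, *Kmt2a*-HET replicate 3, held 48.2 counts and the others 10.5 to 13.0.

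Adding the *Kmt2a* mutation to the loss of *Kdm5c* was examined as DM against *Kdm5c*-KO. Again 0 of 10 members passed in the amygdala (background 0.00329%) and 0 of 10 in the hippocampus (0.0067%) with DESeq2 and with edgeR, with 1 and 0 members at an unadjusted p under 0.05, as for 694 of 30355 and 1352 of 29841 genes. *Dnah1* differed by -0.11 ± 0.19 in the amygdala and by 0.01 ± 0.12 in the hippocampus (adjusted p = 1 for both, DESeq2). The *Dnah3* counts of DM amygdala (54.1 to 75.3) lay above those of *Kdm5c*-KO (26.1 to 48.1) without overlap, as for 0.721% of genes, and the log2 difference was 0.61 ± 0.35 (adjusted p = 1, DESeq2). The interaction, that is the DM difference beyond the sum of the single mutants, was not called for any member in the amygdala (background 0.00329%) or the hippocampus (0%) by DESeq2 or edgeR, with 0 and 2 members at an unadjusted p under 0.05, as for 857 of 30355 and 571 of 29841 genes. For *Dnah1* the amygdala value was -0.44 ± 0.26 and the hippocampus value -0.04 ± 0.18.

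The estimated difference of *Dnah1* from WT was larger in the hippocampus than in the amygdala, by 0.87 ± 0.24 on the log2 scale in *Kdm5c*-KO and by 0.99 ± 0.24 in DM. In *Kmt2a*-HET it was -0.28 ± 0.24. With the mouse as a block these values were 0.86 ± 0.20 for *Kdm5c*-KO and 0.98 ± 0.20 for DM. The contrasts reuse the libraries on which *Dnah1* was chosen. Without a block 0 of 10 members were called by DESeq2 or edgeR in *Kdm5c*-KO or DM (background 0.0125% for both), or in *Kmt2a*-HET (background 0%), with 2, 1 and 0 members at an unadjusted p under 0.05, as for 639, 646 and 570 of 32039 genes. With the block 1 member, *Dnah1*, was called for DM. It was also called without WT replicate 1 for DM and without *Kdm5c*-KO replicate 3 for *Kdm5c*-KO.

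Genes that work with the heavy chains were taken from lists of the ciliary machinery, which were drawn up with earlier results of these data known. Their counts stand beside a background of 1.01% of all genes called in *Kdm5c*-KO and 0.881% in DM hippocampus, and 0.756% and 0.99% in the amygdala. Of 9 dynein arm intermediate and light chains, 1 was called in *Kdm5c*-KO hippocampus, the inner arm light chain gene *Dnali1* (log2 fold change 2.17 ± 0.54, adjusted p = 0.0149, DESeq2), and 0 in the other 3 comparisons of *Kdm5c*-KO or DM with WT. Of 17 dynein arm assembly and docking factors 16 were tested and 0 called in the 4 comparisons. Of 25 further axonemal genes, listed together under the nexin link, radial spokes and central pair, 3 of 24 tested rose in *Kdm5c*-KO hippocampus. These were *Cfap43* (1.64 ± 0.38, adjusted p = 0.00475, DESeq2), *Cfap44* (1.05 ± 0.29, adjusted p = 0.047, DESeq2) and the radial spoke head gene *Rsph4a* (1.41 ± 0.37, adjusted p = 0.0259, DESeq2). In DM amygdala 4 of 25 rose. *Cfap43* rose by 1.30 ± 0.30 (adjusted p = 0.00527, DESeq2), *Cfap44* by 0.76 ± 0.21 (adjusted p = 0.0354, DESeq2) and *Hydin*, a central pair gene, by 0.88 ± 0.25 (adjusted p = 0.061, DESeq2), with *Iqca* as the fourth. In DM hippocampus and *Kdm5c*-KO amygdala 0 were called. Without the libraries of high choroid plexus markers *Cfap43* was the 1 gene of these still called in *Kdm5c*-KO hippocampus (1.45 ± 0.42), where *Cfap44* was 0.83 ± 0.33, *Rsph4a* 1.06 ± 0.43 and *Dnali1* 1.80 ± 0.66. None was called in DM amygdala, where *Cfap43* was 0.99 ± 0.35, *Cfap44* 0.65 ± 0.26, *Hydin* 0.71 ± 0.32 and *Iqca* 0.87 ± 0.50. The median over these 25 listed genes was 0.76 in *Kdm5c*-KO and 0.33 in DM hippocampus, and 0.13 and 0.28 in the amygdala.

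The transcription factors of motile ciliogenesis, among them *Foxj1*, *Rfx2* and *Rfx3*, had 0 of 8 called in the 4 comparisons, with medians from -0.04 to 0.59. Trp73 was called in *Kdm5c*-KO hippocampus when the libraries of high choroid plexus markers were left out (1.39 ± 0.34, against 0.84 with all libraries), and is named after its value was seen. Of 9 cytoplasmic and intraflagellar dynein genes, which move cargo in all cells and in primary cilia, 0 were called and the medians lay between -0.08 and -0.02. The 5 other axonemal heavy chain genes gave 0 calls against WT. In *Kdm5c*-KO hippocampus *Dnah10*, the inner arm partner of *Dnah2*, differed by 0.92 ± 0.36, *Dnah14* by 0.34 ± 0.36, *Dnah7c* by -0.11 ± 0.55, *Dnah17*, a chain of sperm outer arms, by -0.11 ± 0.30, and *Dnah8* by -0.68 ± 0.46. The median of the 5 was -0.11 there and 0.28 in DM hippocampus, and 0.22 and 0.23 in the amygdala. In the amygdala *Dnah17* was higher in *Kdm5c*-KO, with 59.2 ± 12 counts against 37.2 ± 8.12 in WT and 43.9 ± 5.15 in DM (SD).

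Among 15111 genes compared with a mean normalised count of at least 20, those whose profile over the 32 libraries was most like that of *Dnah1* were *BC024139*, *Rps4l*, *Pyroxd2*, *Tnxb* and *6430584L05Rik*. Likeness was the root mean square difference of centred log2 profiles, which was 0.469 for *BC024139*, 0.486 for the ribosomal protein pseudogene *Rps4l*, 0.487 for *Pyroxd2*, 0.489 for *Tnxb* and 0.514 for the long non-coding RNA *6430584L05Rik*, against a median of 0.938. In hippocampus, *Rps4l* had 325 ± 84.4 counts in WT and 1557 ± 122 in *Kdm5c*-KO (SD, n = 4), and *Pyroxd2* had 52.9 ± 4.33 and 144 ± 25.5. None of the other members came as close. *Dnah11* stood at 0.721, *Dnah6* at 0.734, *Dnah3* at 0.746, *Dnah12* at 0.75 and *Dnah2* at 0.757, and *Dnah7b*, *Dnah9*, *Dnah7a* and *Dnah5* at 0.896 to 0.939. The likeness was chosen on all libraries, and is a description.

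The neighbours of *Dnah1* on chromosome 14 were examined in turn. Of 11 genes within 100 kb, 9 were tested in *Kdm5c*-KO and in DM against WT in each region, and 0 were called in these 4 comparisons. *Bap1*, a deubiquitinase gene, had 3576 ± 317 counts in WT and 3255 ± 106 in *Kdm5c*-KO amygdala (SD, n = 4), and *Stab1*, a scavenger receptor gene, had 458 ± 85.7 and 321 ± 53. *Gm35823* overlaps *Dnah1* on the opposite strand. It differed from WT by 0.53 ± 0.29 in *Kdm5c*-KO amygdala (adjusted p = 0.952, DESeq2) and by 0.89 ± 0.47 in *Kdm5c*-KO hippocampus (adjusted p = 0.636, DESeq2), and it was called in DM against *Kmt2a*-HET hippocampus (1.96 ± 0.56, adjusted p = 0.0772, DESeq2). The mean of *Gm35823* there was 16.96 ± 4.73 in DM and 4.32 ± 1.06 in *Kmt2a*-HET, which lay below WT at 11.53 ± 7.09 (SD, n = 4). The sources used here do not state whether the counting used strand, so reads of *Dnah1* and *Gm35823* cannot be told apart with certainty. The same holds for *Dnah2*, *Dnah3*, *Dnah6*, *Dnah9* and *Dnah11*, which overlap annotated antisense genes as well.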

How the data were processed

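Total RNA of microdissected amygdala and hippocampus, with ERCC spike-ins added, was made into oligo-dT primed, directional libraries. Per the methods, reads were mapped to mm10 with STAR 2.5.3a, unique reads were kept, duplicates removed, and genes counted with featureCounts (Subread 1.5.0). The tables the authors deposited hold expected counts per gene and per transcript, part of which are not whole, and the program that estimated them is not given in the sources used here. Expected counts that are estimated in this way can share reads among paralogues and transcripts. They were rounded to whole numbers. Symbols came from GENCODE M21, by gene identifier, with 2156 of 53715 rows matched without the version suffix and 95 rows without a symbol.

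The 16 libraries of a region were fitted together with DESeq2 1.42.0 (R 4.3.3; the study used 1.14.1) with a genotype term and no covariate, Wald test, adjusted p under 0.1 over all genes, as in the study. Regions were compared over the 8 WT libraries or all 32. Tests were two-sided. edgeR 4.0.16 was the alternative test. The other alternatives were TMM or ERCC size factors, a filter of at least 10 counts in 4 libraries, a threshold of 0.05, fits of the compared groups only, a replicate block, and leaving out each library. Leaving out libraries with choroid plexus markers over 5 times, or ependymal markers over 2 times, the regional median was added after the data had been seen. Both regions come from the same numbered mice, and the deviations of a mouse's regions correlated between -0.0876 and 0.455. Between genotypes the numbers mark different mice. Named genes were the 10 members, *Kmt2a*, *Kdm5c*, the other Dnah genes, genes within 100 kb of *Dnah1*, the 5 most like it, and up to 3 called genes per list with the smallest adjusted p. The members, lists and motifs were chosen with earlier results of these data known. The fits were tested on simulated counts. Replicates are separate mice, no pair agreed within sampling noise (chi-square per gene from 3.89), and a count of 3, the limit under which a gene at 0 cannot be told from absence, is 0.108 to 0.156 per 1000000 gene counts. Promoters are RefSeq's, on GRCm38.p6, and 1 promoter sequence is not reported here. Figures were drawn with matplotlib 3.10.9.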

Additional observations from a re-analysis of the deposited data

Results flagged for a closer look

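Of 88 groups of 4 libraries (the counts of the 10 members and the share of the short *Dnah1* transcript, by region and genotype), 6 held a library that stood apart from the other 3 by Dixon's test. Chance gives about 1 in 20, so 6 of 88 is not far above it. The groups share libraries and are not independent. *Kmt2a*-HET replicate 3 was the high library of *Dnah1* in both regions, with 711 counts in the amygdala (others 504.7 to 513.5) and 226.5 in the hippocampus (others 158.4 to 169.9), and of *Dnah3* in the hippocampus, with 48.17 (others 10.46 to 13.04). *Kdm5c*-KO replicate 3 of the amygdala had 26.11 counts of *Dnah3*, below the others at 45.85 to 48.1, and 275.2 counts of *Dnah5*, above the others at 124.7 to 150.1. DM replicate 4 of the amygdala had 140 counts of *Dnah6*, below the others at 318 to 347.2.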

How the results depend on the processing

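*Dnah1* in *Kdm5c*-KO hippocampus kept its call and its direction under all settings tried, with a log2 fold change of 2.17 to 2.31. Against WT it ranged from 1.21 to 1.54 in *Kdm5c*-KO amygdala and from 0.90 to 1.43 in DM amygdala, and from 1.59 to 2.32 in DM hippocampus. ERCC scaling, which moved the median of all genes by -0.735 to 0.769 on the log2 scale, left 0 called members in *Kdm5c*-KO and in DM against WT amygdala, in DM against *Kmt2a*-HET of both regions and in DM against WT hippocampus, and 1 in *Kdm5c*-KO hippocampus and in the WT regions. At an adjusted p under 0.05 and with edgeR 1 member was called in *Kdm5c*-KO and in DM hippocampus. With only the 2 groups compared, 3 members were called in DM against *Kmt2a*-HET amygdala (606 genes in all, against 158) and 4 in DM against WT hippocampus (323 against 170). Without the libraries of high choroid plexus markers 1 was called in DM amygdala and in both mutants of the hippocampus, and without those of high ependymal markers 1 in DM amygdala and in *Kdm5c*-KO hippocampus. A low-count filter gave 1 called member for the regional difference of DM.

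Leaving out 1 library gave 1 to 6 called members in DM amygdala (110 to 277 genes in all), 1 to 5 in *Kdm5c*-KO hippocampus (109 to 290), 1 to 3 in DM hippocampus (100 to 261), 1 to 2 in DM against *Kmt2a*-HET hippocampus (*Dnah11* added without *Kmt2a*-HET replicate 3), 2 to 4 between the WT regions, and 0 to 1 for the regional differences of *Kdm5c*-KO and DM. Small differences of *Dnah1* that were not called changed sign. That of *Kmt2a*-HET hippocampus was -0.18 with ERCC scaling and -0.086 to 0.125 over the libraries left out, that of DM against *Kdm5c*-KO hippocampus was -0.68 with ERCC scaling, -0.05 without high choroid plexus markers and -0.052 to 0.075 over the libraries left out, that of DM against *Kdm5c*-KO amygdala was -0.195 to 0.051 over them, and the interaction in hippocampus was -0.115 to 0.096. The cause was not tested.

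With the replicate number as a block, the called members were 3 in *Kdm5c*-KO hippocampus (*Dnah12* lost, 506 genes called against 195) and 1 for the regional difference of DM, and no other genotype comparison within a region changed its member calls. The numbers mark different mice across genotypes, and in 0 of the 10 comparisons did all 4 pairs correlate over 0.1. In *Kdm5c*-KO against WT amygdala the pairs of equal number correlated between 0.0869 and 0.245, against a median of -0.0607 for other pairs. In DM against *Kdm5c*-KO hippocampus they lay between -0.214 and -0.0466, against 0.014. Whether a batch follows the replicate number was not tested.

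The expected counts limit how far paralogues, antisense partners and the *Dnah1* transcripts can be separated. When each of the 8 libraries compared was left out in turn, *Dnah12* lost its call in 7 cases, *Dnah3* in 6 and *Dnah6* in 6 for *Kdm5c*-KO hippocampus, *Dnah6* in 5 for DM hippocampus, and *Dnah12* in 6 and *Dnah11* in 1 for DM amygdala.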
